A study of Homo sapiens with 2 samples.

Results

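The LIM homeobox genes LHX1, LHX2, LHX3, LHX4, LHX5, LHX6, LHX8, LHX9, ISL1 and ISL2, 10 of the 20162 protein-coding genes of the human annotation, were chosen by name, and their CpG methylation was read in 2 whole-genome bisulfite libraries. The choice was made with earlier results of these data known. Bisulfite turns unmethylated cytosine into a base read as T and leaves methylated cytosine read as C, so the methylation level of a CpG is its share of reads with C. Both libraries came from HEK293T, an epithelial cell line from human embryonic kidney. The library titled Negative (Neg) was the control, which the study describes as cells without transduction. The library titled dCas9+3A+HOXA5 came from cells with 3 lentiviral parts, namely catalytically dead Cas9 (dCas9) with the SunTag peptide repeat, the DNA methyltransferase DNMT3A fused to an antibody fragment for that repeat, and a HOXA5 guide RNA. It is called the treated library below. GEO's labels attach the same text to both samples, collection 30 days after infection and purification by fluorescence, so only the titles separate them. A methylation library holds no transcripts, so the labelled cell type was not checked against marker genes here. With 1 library per group there was no replicate check, and each test below compares 2 libraries, not the conditions.

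LIM homeobox proteins bind DNA through a homeodomain and bind other proteins through a pair of LIM domains in front of it. LDB cofactors bridge LIM domains into larger complexes, and LIM-only (LMO) proteins compete for the same cofactors. The genes are known for specifying neurons, pituitary cells, limb, kidney and heart progenitors, and in tissues that do not use them the starts of such developmental genes often lie in CpG-rich stretches held free of methylation. The family falls into related pairs, and the results below follow them: LHX1 and LHX5, LHX2 and LHX9, LHX3 and LHX4, LHX6 and LHX8, ISL1 and ISL2. LMX1A and LMX1B, the remaining pair of the family, are given beside them.

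Read counts were summed over CpGs, with a read counted at each CpG it spans. They came to 89774283 over 23653951 CpGs in Neg (mean 3.795, median 3) and 46703423 over 16134844 CpGs in the treated library (mean 2.89, median 2). Over the 14699127 CpGs read in both libraries the mean level was 63.74% in Neg and 69.55% in the treated library, a shift of 5.81 percentage points against which every difference below has to be read. The bodies of the 10 genes and 5 kb on either side held 6001 CpGs read in both libraries, 67.4% of the 8906 CpGs of the reference there. The targeted gene matched the titles: the HOXA5 body stood at 3.91% in Neg (20 of 417 reads with C) and 59.5% in the treated library (165 of 277 reads). No sequence followed by NGG within 4 mismatches of the HOXA5 guide lay in any of the 12 LIM homeobox loci with their flanks, where the closest site had 5 mismatches, at LMX1A.

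The level of a region was the mean over its CpGs, given with the standard error over CpGs (SE). A region was called where the levels differed by more than 20 percentage points and Fisher's exact test on the summed reads, two-sided and adjusted by Benjamini-Hochberg over all such regions of the genome, gave a p under 0.01. Reads are summed over CpGs here and below, so a read that spans several CpGs counts at each of them. The SE likewise takes neighbouring CpGs as independent. Upper limits given where no read had C are therefore too low, and the p-values are too small. For this reason the calls of promoters, bodies and flanks were repeated on CpGs at least 150 bp apart, a choice made after the data were seen. Read length was not given in the sources used, so how many of these CpGs still share a read is not known. A 500-bp tile cannot hold 5 CpGs at that spacing, so the calls of tiles were not repeated and rest on reads that may be shared.

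The stretches below come from called gains in ISL1, ISL2 and LHX2, and show what kind of DNA those lay in. They are from the GRCh37 assembly, whose coordinates are those of hg19, in the direction of the gene, with each CpG in capitals. The stretches of ISL1, ISL2 and the farther one of LHX2 were picked after their values were seen, as the 300 exon-free bases of a called 500-bp tile with the most covered CpGs. First come the bases at chr5:50694600-50694899 (plus strand), in no annotated gene, about 4 kb beyond the end of ISL1, where the mean over 15 CpGs was 6.81% in Neg and 95.6% in the treated library. Next are the bases at chr5:50685177-50685476 (plus strand), in an ISL1 intron, where the mean over 14 covered CpGs was 5.71% in Neg and 85.7% in the treated library. As reads with C these were 4 of 41 and 24 of 32. The ISL2 stretch at chr15:76639006-76639305 (plus strand), also in no annotated gene, had no read with C among 48 in Neg and 20 of 37 in the treated library. If these counts were independent, the share in Neg could be up to 6.25%. The mean of this stretch over 17 covered CpGs was 0% in Neg and 33.3% in the treated library. The LHX2 stretch at chr9:126763179-126763478 (plus strand), upstream of the gene start, had 13 of 32 reads with C in Neg and 21 of 21 in the treated library, with means over CpGs of 44.8% and 100%.
ISL1 downstream: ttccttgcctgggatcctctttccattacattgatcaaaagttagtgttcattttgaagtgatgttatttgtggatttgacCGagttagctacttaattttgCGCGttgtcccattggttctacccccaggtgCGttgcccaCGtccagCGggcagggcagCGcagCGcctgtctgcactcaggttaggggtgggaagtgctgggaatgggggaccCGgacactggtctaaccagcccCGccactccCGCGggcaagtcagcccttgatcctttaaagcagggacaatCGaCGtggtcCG
ISL1 intron: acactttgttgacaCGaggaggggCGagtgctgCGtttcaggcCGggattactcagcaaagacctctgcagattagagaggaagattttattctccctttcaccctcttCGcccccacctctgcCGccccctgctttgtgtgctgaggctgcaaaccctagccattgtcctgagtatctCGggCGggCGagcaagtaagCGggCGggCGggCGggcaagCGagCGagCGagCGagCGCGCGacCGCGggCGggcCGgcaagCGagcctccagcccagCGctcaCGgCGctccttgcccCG
ISL2 downstream: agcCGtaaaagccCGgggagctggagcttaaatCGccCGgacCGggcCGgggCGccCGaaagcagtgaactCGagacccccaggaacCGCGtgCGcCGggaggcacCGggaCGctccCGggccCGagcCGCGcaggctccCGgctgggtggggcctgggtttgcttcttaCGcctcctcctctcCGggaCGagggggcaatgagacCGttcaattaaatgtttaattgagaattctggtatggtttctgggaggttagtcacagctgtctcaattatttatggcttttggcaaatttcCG
LHX2 upstream: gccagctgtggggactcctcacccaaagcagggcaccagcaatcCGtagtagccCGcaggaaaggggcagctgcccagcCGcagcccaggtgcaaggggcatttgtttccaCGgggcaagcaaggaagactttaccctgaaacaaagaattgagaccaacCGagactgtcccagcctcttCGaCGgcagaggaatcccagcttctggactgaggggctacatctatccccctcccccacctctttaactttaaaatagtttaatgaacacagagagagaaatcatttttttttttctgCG
These differ in makeup. The ISL1 intron stretch held 29 CpGs in 300 bases and the ISL2 stretch 25, while the ISL1 downstream stretch held 15 and the LHX2 stretch 8.

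**Figure D1:**
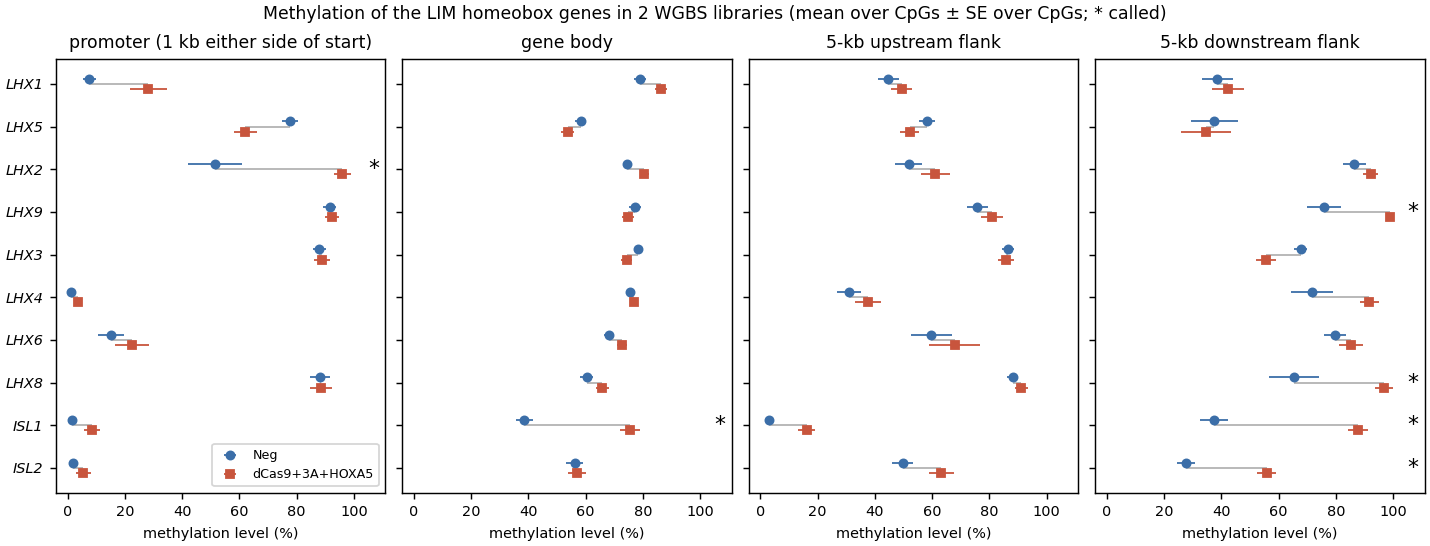
Methylation level (%, x axis) of the promoter, body and both 5-kb flanks of each of the 10 LIM homeobox genes, with circles for Neg and squares for dCas9+3A+HOXA5, the treated library, bars of 1 SE over CpGs and an asterisk for a called region. The ISL1 body (38.5% against 75.4%) and the downstream flanks of ISL1 and ISL2 stand apart, while promoters other than that of LHX2 carry no asterisk.

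Promoters, taken as 1 kb either side of the annotated gene start, formed a low and a high set in Neg. LHX1, LHX4, LHX6, ISL1 and ISL2 lay between 1.15% and 15.1%, LHX2 at 51.6%, and LHX3, LHX5, LHX8 and LHX9 between 77.8% and 91.6%. These sets hold for the annotated gene start only. Around the start of the canonical transcript, LHX8 stood at 6.33% in Neg, LHX1 at 24.4%, LHX9 at 57.6% and LHX2 at 66.3%. There LHX6 (7.79%) stayed low and LHX5 (77.6%) high, and the other genes have the same start in both definitions. Of the 10 promoters 1 was called higher and 0 lower, where 1.63% of 18577 promoters were called higher and 0.533% lower. None of the 5 promoters low at the annotated start was called, against 0.891% of all promoters under 20% in Neg. The median difference was 2.96 percentage points in the 10 promoters and 1.35 over all promoters.

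Of the bodies 1 of 10 was called higher, that of ISL1, and 0 lower, beside 2.01% and 0.252% of 19428 bodies. Of the 5-kb upstream flanks 0 of 10 were called in either direction, beside 2.16% higher and 0.237% lower over all genes. Of the 5-kb downstream flanks 4 of 10 were called higher (LHX8, LHX9, ISL1 and ISL2) and 0 lower, beside 2.31% and 0.296%. The genes were chosen with earlier results of these data known. Their shares of called regions and tiles are therefore a description, not an independent test against all genes. The median downstream difference was 12.9 percentage points in the 10 genes and 4.17 over all genes, while body medians were close to each other, 2.91 and 3.68. In 500-bp tiles, 14 of 345 tested tiles of the 10 genes (4.06%) were called higher and 4 (1.16%) lower, beside 1.05% and 0.397% of tiles genome-wide. Of the 14 tiles called higher, 8 were of ISL1 and 3 of ISL2. With or without a call, 214 of the tested tiles were higher in the treated library and 116 lower. The split over all tiles is not given here. Because the mean over all CpGs was itself 5.81 points higher, this split is not read as a trait of these genes.

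With CpGs at least 150 bp apart, 2 of these regional calls were kept, the body and the downstream flank of ISL1. At that spacing 2.78% of bodies, 0.431% of downstream flanks, 0.55% of upstream flanks and 0.153% of promoters were called higher over all genes. The calls at LHX2, LHX9 and ISL2 were lost, and the LHX8 downstream flank was left with under 5 CpGs.

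ISL1, a LIM homeobox gene of motor neurons, pancreatic endocrine cells and heart progenitors, showed the largest body and downstream differences of the family. It lies at chr5:50679282-50690564 (hg19, plus strand). Its body stood at 38.5% ± 2.99 (SE, 150 CpGs) in Neg and 75.4% ± 3.37 in the treated library. The difference was 36.98 percentage points ± 3.496, with 92 CpGs higher and 10 lower in the treated library, and 175 of 489 against 388 of 488 reads carried C (exact test, adjusted p = 5.3e-43). On spaced CpGs it was 20.2 points over 30 CpGs (exact test, adjusted p = 3.1e-06), just past the threshold of 20. Exons and introns differed by similar amounts, 41.5 points ± 5.53 over 64 CpGs and 33.6 ± 4.496 over 86.

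The 5 kb beyond the ISL1 end went from 37.3% ± 4.89 in Neg (93 of 305 reads) to 87.7% ± 3.49 in the treated library (209 of 236 reads), a rise of 50.4 points ± 6.01 over 70 CpGs. The spaced value was 31.2 points over 17 CpGs (exact test, adjusted p = 0.003). Within the nearest 2 kb of this flank the difference was 1.56 points, and the rise lay in tiles at 15.5 and 16.0 kb from the gene start. In the first of them, which holds the downstream sequence printed above, 12 of 17 CpGs had no read with C in Neg and 16 of 17 were at 100% in the treated library. The level went from 7.48% (7 of 92 reads) to 96.1% (55 of 57 reads) in that tile and from 15.3% to 97.0% in the next.

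The start of ISL1 was low in both libraries. The promoter stood at 1.52% ± 0.621 in Neg and 8.57% ± 2.66 in the treated library, and 6 of 374 against 18 of 359 reads carried C (exact test, adjusted p = 0.065). The tile over the start stood at 2.52% and 3.30%, and the tile before it at 0.409% and 4.68%. Farther upstream, the tile at -1.53 kb from the start rose from 3.57% to 58.3%, though on 30 and 24 reads only. Tiles under 20% around the start spanned 5.5 kb in Neg, from -4.78 to 0.718 kb of the start, and 1.5 kb in the treated library, from -0.782 to 0.718 kb. The whole upstream flank stood at 2.87% (7 of 502 reads) and 16.2% (51 of 482 reads). The difference of 13.4 points ± 3.02 was under the threshold of size (exact test, adjusted p = 3.4e-08). On spaced CpGs it was 24.8 points over 18 CpGs (exact test, adjusted p = 0.034), without a call. This side also holds ISL1-DT, a divergent noncoding gene that starts 116 bp from ISL1.

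Inside the body, 5 tiles between 3.97 and 6.47 kb were called. The level went from 36.6% to 100% at 3.97 kb (21 of 53 against 74 of 74 reads) and from 5% to 87.5% at 5.97 kb (4 of 47 against 32 of 40), where the intron sequence above lies. The tile at 7.97 kb went the other way, 80% and 60%, on 10 and 18 reads and without a call. The locus also had an unusual depth. Reads over ISL1 and its flanks in the treated library, relative to Neg and to the totals of the libraries, were at 1.49, the 97.3 percentile of all genes, and the part of this in the methylation difference was not tested. The mean difference of chromosome 5, which carries ISL1, was 7.26 points.

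**Figure D2:**
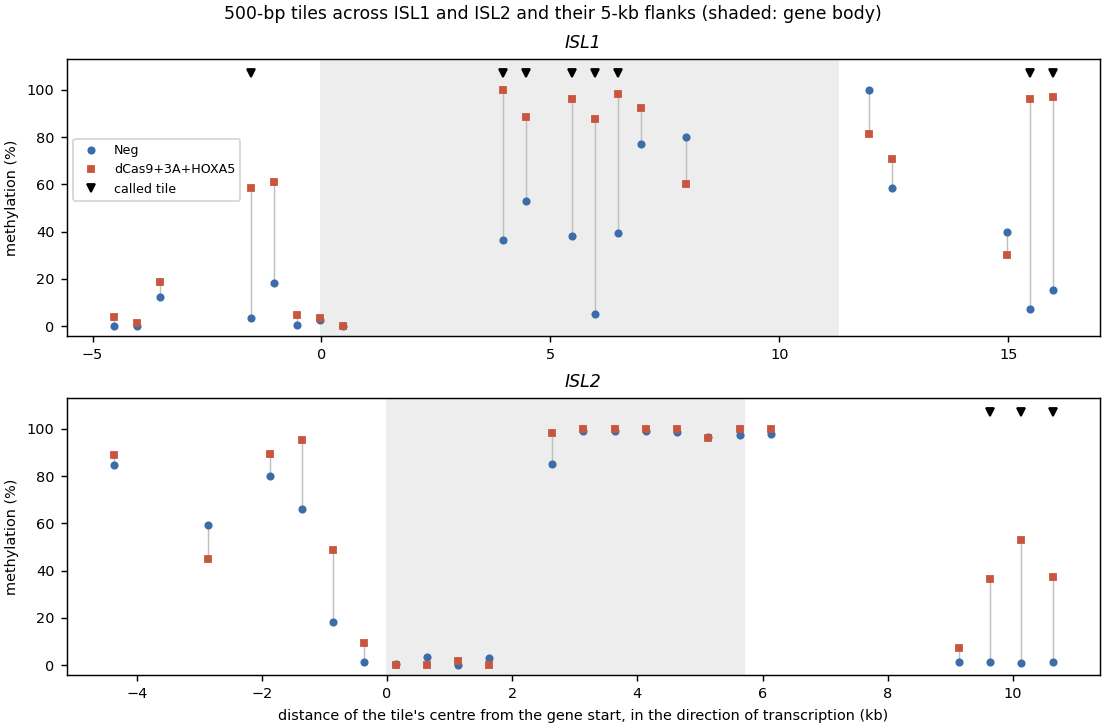
Methylation (%, y axis) of 500-bp tiles with at least 5 covered CpGs across ISL1 and ISL2 and their 5-kb flanks, by distance of the tile's centre from the gene start in kb (x axis), with circles for Neg, squares for dCas9+3A+HOXA5, the treated library, shading for the body and triangles over called tiles. ISL1 tiles around the start stay under 5% while those from 3.97 to 6.47 kb and at 15.5 and 16.0 kb rose. In ISL2 the called tiles lie at 9.64 to 10.6 kb, beyond the gene.

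ISL2, its close relative, which acts in motor and visceral motor neurons, showed almost no difference in its body. The gene lies at chr15:76629114-76634816 (plus strand). Its body stood at 56.2% ± 2.99 in Neg and 56.9% ± 3.05 in the treated library over 260 CpGs, a difference of 0.735 points ± 0.735, and the promoter at 2.01% and 5.51%. The body is split. Tiles from 0.136 to 1.64 kb were under 4% in both libraries, and the tile at 2.64 kb already stood at 85.3% and 98.1%. Just upstream, the tiles at -0.864 and -1.36 kb from the start were at 18.5% and 66.2% in Neg and at 48.8% and 95.5% in the treated library, without a call (exact test, adjusted p = 0.142 and 0.021).

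The ISL2 downstream flank rose from 27.7% ± 3.27 to 55.9% ± 3.22, by 28.2 points ± 2.70 over 174 CpGs, 81 of them higher and 2 lower. As a share of reads the difference was smaller, 16.3 points (272 of 778 against 289 of 564), and on spaced CpGs it was 30.6 points over 17 CpGs with an exact-test adjusted p of 0.108. In the nearest 2 kb it was 3.62 points. The rise lay in 3 adjoining tiles at 9.64, 10.1 and 10.6 kb that were near 1% in Neg and reached 36.5%, 52.8% and 37.5%. At 9.64 kb, 47 of 50 CpGs had no read with C in Neg, and 104 of 244 reads carried C in the treated library against 3 of 237. In the treated library 6 of these 50 CpGs and 7 of 30 in the next tile were at 100%. Relative depth over ISL2 was 0.859, in the lower part of the range over genes.

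Farther out, in 5-kb bins from 5 to 25 kb on either side of the 10 genes, 60 of 79 bins with at least 5 CpGs were higher in the treated library and 19 lower, with a median difference of 6.6 points beside the 5.81 of all CpGs. Beyond the ISL1 end, the next 5 kb stood at 59.9% in Neg and 98.4% in the treated library over 16 CpGs and the following at 71.5% and 92.3% over 13. From 20 to 25 kb downstream they stood at 62.3% and 100%, over 6 CpGs with 7 reads in the treated library. On the other side, from 5 to 10 kb upstream of ISL1, the levels were 89.4% and 88.8% over 63 CpGs, and of the 4 upstream bins 2 were higher and 2 lower. For ISL2, all 4 bins from 5 to 25 kb downstream were higher in the treated library, by 26.7 points over 13 CpGs in the nearest, then by 14.4 over 24, 0.70 over 23 and 12.1 over 11 CpGs. The 4 bins from 5 to 25 kb upstream of ISL2 were higher by 5.56 to 17.7 points, over 37 to 49 CpGs each. In LHX8 all 4 downstream bins were higher as well, by 13.5 to 36.4 points over 15 to 21 CpGs each, whereas 6 of the 8 bins of LHX5 were lower, by up to 8.16 points. The bins of the other 6 genes lay between -19.02 and 34.6 points. Downstream of LMX1A, the 4 bins were higher by 4.58 to 21.4 points. These bins hold few CpGs and were not tested.

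**Figure D3:**
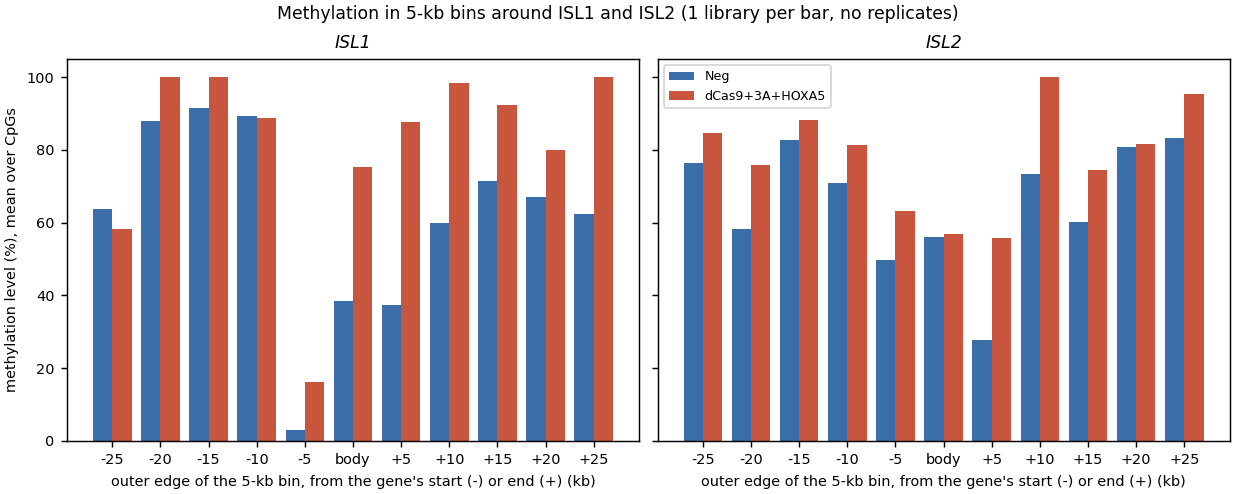
Methylation level (%, y axis, mean over CpGs) in 5-kb bins out to 25 kb on either side of ISL1 and ISL2 and in their bodies, with 1 bar per library and no error bars. In ISL1 the bars differ most in the nearest downstream bin (37.3% against 87.7%), also in the body, the next bin and the bin from 20 to 25 kb downstream, and hardly from 5 to 10 kb upstream.

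LHX1 and LHX5 act in kidney and head development and in interneurons. The treated library was higher at the LHX1 promoter and lower at that of LHX5, and neither was called. The LHX1 promoter stood at 7.68% ± 2.28 in Neg and 28.3% ± 6.47 in the treated library, a difference of 20.6 points ± 5.21 over 46 of 156 CpGs, with 22 of 163 against 18 of 81 reads (exact test, adjusted p = 0.289, no call). Its difference lay inside the gene: the tile at 0.666 kb stood at 9.67% and 46.7%, and the tile at 1.17 kb rose from 39.0% to 79.5%, beside a start that stayed under 5% for 2 kb upstream. Around the start of the canonical transcript, 0.688 kb into the gene, the promoter window went from 24.4% to 49.8% and passed both thresholds, as 1.46% of such windows did. On spaced CpGs that call was lost, at 29.04 points over 7 CpGs (exact test, adjusted p = 0.244), where 0.0934% of such windows were called higher. LHX1-DT, a divergent noncoding gene, starts 115 bp from LHX1. The LHX1 body stood at 78.9% and 86.3%, with exons 10.7 points ± 2.33 higher and introns 1.68 ± 1.73 higher in the treated library. Its flanks differed by 4.65 points upstream and 3.69 downstream as means over CpGs. As shares of reads these were 10.9 points (222 of 544 against 276 of 534 reads, exact test, adjusted p = 0.0036) and 14.1 points (101 of 277 against 95 of 188, adjusted p = 0.022), under the threshold of size.

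The LHX5 promoter was methylated at 77.8% ± 2.78 in Neg and 62.1% ± 4.02 in the treated library, the only promoter of the 10 with a lower mean over CpGs, by 15.7 points ± 4.24 over 114 CpGs (exact test, adjusted p = 0.003, under the threshold of size). The tile at 0.335 kb fell from 76.9% to 52.8% (127 of 156 against 88 of 151 reads), a call lost with a minimum of 5 reads (-19.5 points over 11 CpGs). It lies over exons of both LHX5 and LHX5-AS1, a noncoding gene on the opposite strand, so its level belongs to DNA that both genes share. The 250 bases before the LHX5 start, chr12:113910086-113910335 read on the minus strand, are shown because they are CpG-rich and yet methylated in both libraries.
LHX5 upstream: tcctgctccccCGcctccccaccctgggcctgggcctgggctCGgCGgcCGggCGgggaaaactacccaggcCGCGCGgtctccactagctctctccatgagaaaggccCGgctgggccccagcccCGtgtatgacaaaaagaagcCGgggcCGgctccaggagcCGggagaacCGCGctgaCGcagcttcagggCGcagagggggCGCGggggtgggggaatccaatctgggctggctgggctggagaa
Of its 19 CpGs 13 were covered, with means of 74.9% and 53.2%, but the share of reads with C was alike, 22 of 39 in Neg and 35 of 60 in the treated library, so the direction there depends on how CpGs are weighted. The LHX5 body stood at 58.2% and 53.7%, and its upstream and downstream flanks at 58.3% and 52.1%, and 37.6% and 34.5%, without a call. As a share of reads the downstream flank stood lower by more, at 48.5% (81 of 167 reads) and 26.7% (16 of 60), but over 28 CpGs and with an exact-test adjusted p of 0.026, above the threshold of 0.01. Without the 1 CpG there that had over 30 reads, the exact-test adjusted p was 0.547, so the read share rested largely on that CpG.

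LHX2 and LHX9 act in limb, forebrain, eye and gonad development. The promoter of LHX2 was the called promoter of the family, 51.6% ± 9.46 in Neg and 96.0% ± 2.97 in the treated library, a rise of 44.4 points ± 10.3 over 18 CpGs with 13 higher and 1 lower (exact test on 49 of 91 against 64 of 67 reads, adjusted p = 1.0e-07). It came from few CpGs. The tile at -0.699 kb from the start rose from 44.8% to 100% over the 8 CpGs printed above, whereas the tiles from -2.20 to -1.20 kb of the start were under 10% in both libraries. The 250 bases just before the start, chr9:126763699-126763948 on the plus strand, are shown to set them beside that stretch.
LHX2 start: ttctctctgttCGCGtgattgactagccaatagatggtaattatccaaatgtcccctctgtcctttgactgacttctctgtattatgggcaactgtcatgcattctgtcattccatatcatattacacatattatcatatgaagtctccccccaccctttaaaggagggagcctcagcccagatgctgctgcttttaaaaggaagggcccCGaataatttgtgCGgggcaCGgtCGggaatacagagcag
Their 5 covered CpGs stood at 86.7% in Neg and 90.0% in the treated library. On spaced CpGs the promoter difference was 35.0 points over 5 CpGs with an exact-test adjusted p of 0.677, and with 2 kb either side it was 16.4 points. The annotated start belongs to a long transcript. Around the start of the canonical transcript, 10.1 kb into the gene, LHX2 stood at 66.3% and 67.9% over 104 CpGs. As reads the direction there was the opposite, 233 of 338 with C in Neg and 153 of 283 in the treated library (exact test, adjusted p = 0.0026, no call). The body stood at 74.3% and 80.5%, and the flanks at 51.8% and 61.1% upstream and 86.4% and 92.1% downstream.

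The LHX9 promoter was at 91.6% and 92.4%, and the low tiles lay at the canonical start, 5.47 kb into the gene, where those from 4.22 to 5.22 kb were under 8% in both libraries. Past this edge the tile at 7.22 kb fell from 98.2% to 52.5% on 25 and 22 reads. The LHX9 downstream flank rose from 75.9% ± 5.84 to 99.0% ± 0.962, by 23.2 points ± 5.86 over 26 CpGs (exact test, adjusted p = 0.001). On spaced CpGs it was 20 points over 10 CpGs with an exact-test adjusted p of 0.712. The LHX9 body stood at 77.3% and 74.7% and the upstream flank at 75.7% and 80.8%.

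LHX3 and LHX4 act in pituitary and motor neuron development, and their promoters fell in the high and the low set. The LHX3 promoter was at 88.0% ± 2.37 and 88.9% ± 2.77 over 85 CpGs, and that of LHX4 at 1.15% ± 0.392 and 3.57% ± 1.43 over 126 CpGs. LHX3 held 2 of the 4 tiles of the family that were called lower. At 3.22 kb, in the gene, the level fell from 81.3% to 54.8% over 49 CpGs (164 of 210 against 63 of 112 reads), a call lost with a minimum of 3 reads (-17.9 points over 18 CpGs), and at 11.2 kb, beyond its end, from 83.9% to 41.1% over 28 CpGs. Its downstream flank stood at 67.8% ± 2.25 and 55.6% ± 3.48, without a call (exact test, adjusted p = 0.271), and LHX3 introns were 8.91 points ± 2.80 lower and exons 1.73 ± 2.55 higher in the treated library. LHX4 had no called tile among 65 tested, and the tiles under 20% at its start covered the same 2.5 kb in both libraries. Its downstream flank stood at 71.7% and 91.7%, a difference of 20.1 points ± 6.62 over 21 CpGs that the test did not pass (exact test, adjusted p = 0.123). That flank lies within ACBD6, which overlaps LHX4. The bodies stood at 78.4% and 74.3% for LHX3 and at 75.4% and 77.0% for LHX4, and the upstream flanks at 86.4% and 85.7%, and 30.9% and 37.5%.

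LHX6 and LHX8 act in interneurons of the forebrain and in tooth and craniofacial development. The LHX6 promoter stood at 15.1% ± 4.60 and 22.5% ± 6.003, and its body at 68.3% and 72.5%. None of its 43 tested tiles was called, and 1.5 kb of tiles under 20% lay at the same place in both libraries. The LHX8 promoter was at 88.3% and 88.6%, with the low tiles again at the canonical start, 5.95 kb into the gene, over 3.0 kb in both libraries. The promoter window around that start stood at 6.33% and 9.31% over 58 CpGs. At the edge of this stretch, at 5.13 kb, the tile rose from 30.0% (15 of 46 reads) to 93.3% (34 of 37 reads) over 9 CpGs, while the tile at 5.63 kb stood at 6.38% and 12.5%. The LHX8 downstream flank rose from 65.5% ± 8.84 to 96.9% ± 3.13, but over 8 CpGs only, with 18 of 31 against 28 of 29 reads (exact test, adjusted p = 0.006). Its body stood at 60.3% and 65.7%, and at 58.96% and 73.1% as a share of reads, and its upstream flank at 88.1% and 91.2%. The LHX6 flanks stood at 59.7% and 67.9% upstream, over 25 CpGs, and at 79.7% and 85.2% downstream.

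**Figure D4:**
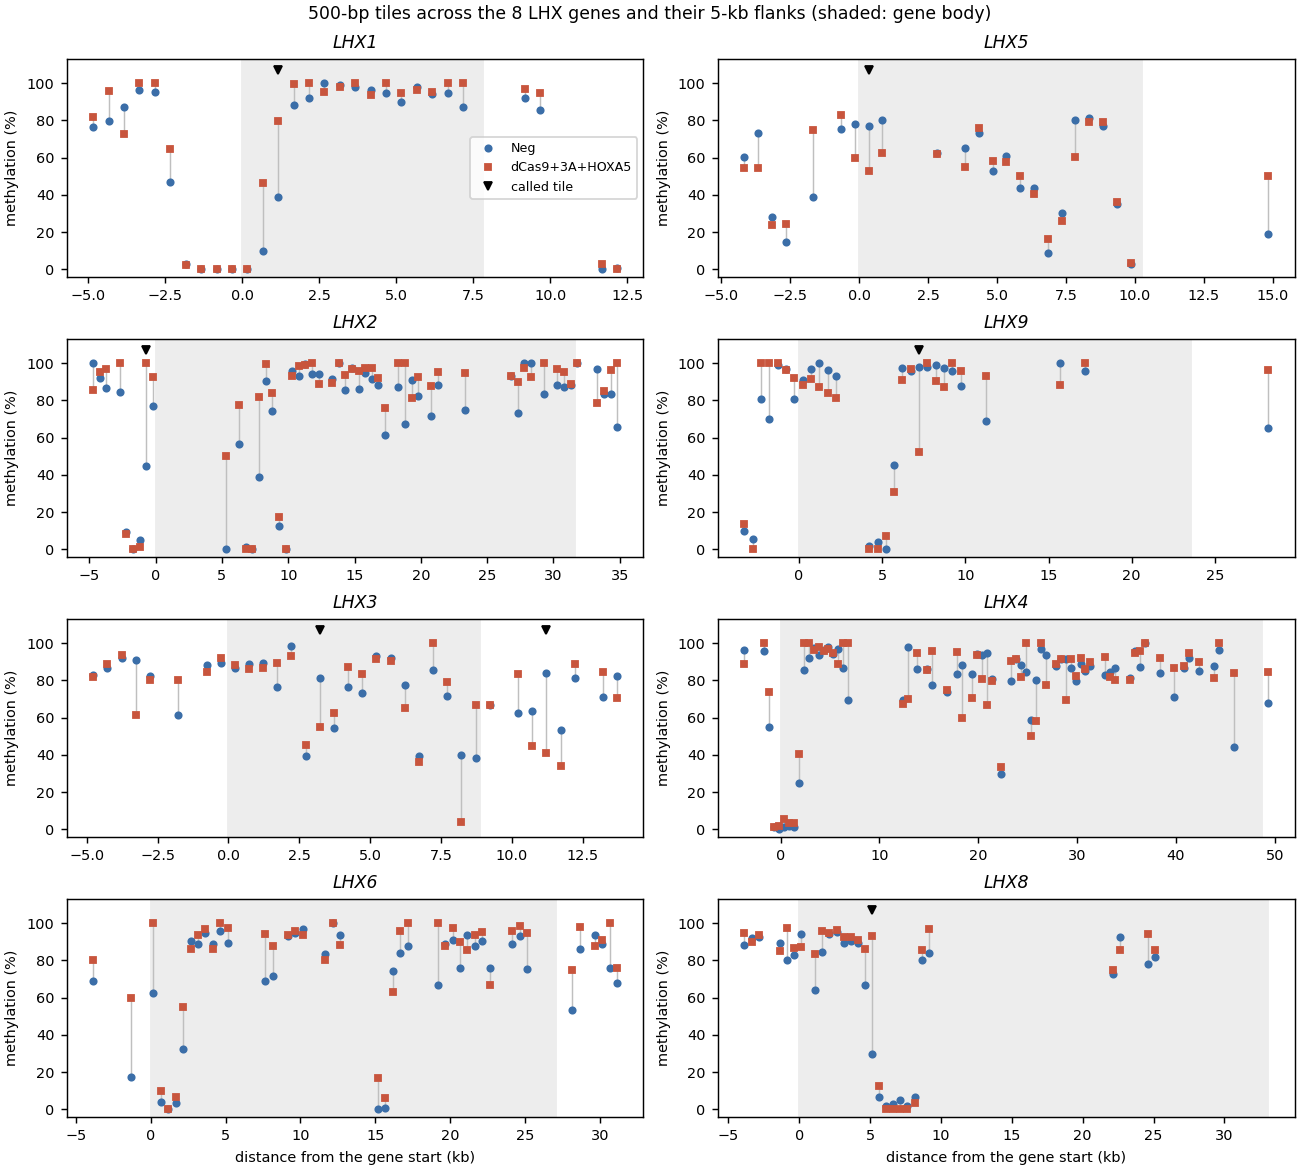
Methylation (%, y axis) of 500-bp tiles with at least 5 covered CpGs across the 8 LHX genes and their 5-kb flanks, by distance from the gene start in kb (x axis), with circles for Neg, squares for dCas9+3A+HOXA5, the treated library, shading for the body and triangles over called tiles. Low stretches stand at much the same place in both libraries, and the 7 called tiles, 3 that rose and 4 that fell, are scattered over 6 genes.

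In LMX1A and LMX1B, of dopamine neurons and of limb and kidney, no region was called. The LMX1A promoter stood at 87.5% and 89.7% and that of LMX1B at 5.91% and 6.67%. The LMX1A body stood at 66.9% and 77.7%, 10.8 points ± 1.20 higher, most of it in introns (12.3 points ± 1.29 against -3.04 ± 2.82 in exons), and the LMX1B body at 78.5% and 83.5%. Of tested tiles, 1 of 51 in LMX1A (1.96%) and 2 of 125 in LMX1B (1.6%) were called higher and 0 lower, near the 1.05% called higher genome-wide. They lay at 40.2 kb in LMX1A (54.8% to 94.6%), and at 25 and 57.5 kb in LMX1B (47.9% to 89.3% and 34.1% to 85.6%). The LMX1B upstream flank was lower in the treated library, 38.1% and 33.0% as a mean over 137 CpGs, and by 19.8 points as a share of reads (250 of 502 against 75 of 250, exact test, adjusted p = 9.7e-06), just under the threshold of size. On spaced CpGs it was -1.19 points over 21 CpGs (exact test, adjusted p = 0.456). Its downstream flank stood at 39.1% and 47.1%. The LMX1A flanks stood at 74.3% and 85.3% upstream and at 31.2% and 53.3% downstream, the latter over 10 CpGs with 12 of 31 against 14 of 33 reads (exact test, adjusted p = 0.926). Relative depth over LMX1A was 1.48, close to that of ISL1.

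Around the starts, the span of tiles under 20% was compared for the genes that had one. It ended at the first tested tile at 20% or more, and untested tiles were passed over. The span was 2.5 kb in both libraries for LHX4 and LMX1B, and 3.0 kb in Neg and 2.5 kb in the treated library for LHX1 and ISL2. ISL1, with 5.5 kb and 1.5 kb, had the widest span in Neg and the widest difference of the family. A single tile can end a span, and low tiles also lay outside these. The ISL1 body and flanks held 11 tested tiles under 20% in Neg and 6 in the treated library, against 8 and 3 within the spans. Over the 345 tested tiles of the 10 genes, 63 were under 20% in Neg and 50 in the treated library, and 188 and 216 were over 80%. The same counts over all tiles are not given here, so these cannot be told from the shift of 5.81 points over all CpGs.

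Genes that work with the family were given by lists. Of 10 LIM-only and cofactor genes (LMO1 to LMO4, LDB1, LDB2, SSBP2 to SSBP4 and RLIM), 0 promoters and 0 bodies were called, beside 1.63% of promoters and 2.01% of bodies called higher over all genes, and the median promoter difference was 7.06 points. Of their flanks, 1 of 10 upstream was called higher, beside 2.16%, and 1 of 9 tested downstream was called lower, beside 0.296%. The first was that of LMO3, with 0 of 21 reads with C in Neg and 11 of 13 in the treated library over 7 CpGs (exact test, adjusted p = 1.1e-05). If its counts were independent, the share in Neg could be up to 14.3%. The second was that of RLIM, a ubiquitin ligase that acts on LDB cofactors, at 67.9% and 35.7% over 31 CpGs (exact test, adjusted p = 4.8e-05). Called flanks of these lists are named after their values were seen. The largest promoter differences rested on few reads. The LDB2 promoter had 0 of 13 reads with C in Neg, which allows up to 23.1% for independent counts, and 3 of 14 in the treated library (exact test, adjusted p = 0.482). The LMO3 promoter stood at 12.5% and 42.5% over 8 CpGs (exact test, adjusted p = 0.283). POU1F1, a pituitary transcription factor that acts with LIM homeobox proteins, had the largest promoter difference in a list of 15 partners and targets. Its promoter level was 66.4% in Neg and 96.7% in the treated library over 6 CpGs (exact test, adjusted p = 0.247), and it was not called. Of DLX1 to DLX6 and IRX1 to IRX6, which are other homeobox families, 0 promoters, 0 bodies and 0 upstream flanks were called. Of their downstream flanks, 1 of 6 in DLX and 0 of 6 in IRX were called higher and 0 lower, beside 2.31% and 0.296% over all genes. That of DLX1 rose from 58.0% to 94.6% over 37 CpGs (exact test, adjusted p = 0.00048). Values on spaced CpGs are not given for the called flanks of LMO3, RLIM and DLX1, so whether these calls hold there is not shown. The downstream difference was above 0 in all 6 DLX genes, with a median of 10.5 points, and had a median of 0.63 points in IRX, beside 12.9 in the LIM homeobox genes and 4.17 over all genes.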

How the data were processed

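WGBS was read in 2 HEK293T libraries, 1 per group, grouped by their titles. The authors used BSMAP 2.90 for trimming, for alignment to hg19 and for the methylation calls. How duplicates were handled: not given in the sources used here. Per the file headers, the deposited tables hold for each CpG a count of C reads, a count of C plus T reads, an estimated count in which the other strand serves to discount C-to-T variants, and the methylation fraction. The study's minimum of 5 reads per CpG was not met by all listed CpGs, and a minimum of 1 read in both libraries was used here. Positions matched GRCh37, and genes came from GENCODE release 44 mapped to it.

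Levels were means of the deposited fraction over at least 5 CpGs. Fisher's exact test used the C count and the remaining C-or-T count, two-sided, with Benjamini-Hochberg adjustment over all regions of a kind. The thresholds of 20 percentage points and 0.01 are those that the study set for CpG islands. The test was checked on simulated counts, drawn independently for each promoter and called on the share of reads. These counts held no reads shared between CpGs, so the check does not cover that fault. Members and lists were chosen with earlier results of these data known. All members and LMX1A and LMX1B were named; of other lists, genes called in promoter or body or else the 2 with the largest promoter difference, and of tiles the 2 with the largest difference per gene, with further tiles described after their values were seen. Results of some comparison lists are not reported here. Intervals and limits cover counting error only and take counts at neighbouring CpGs as independent, so they are too narrow. Alternatives were other minimums of reads and CpGs, levels as the share of methylated reads, depth and variant filters, other region widths, all gene types, canonical transcript starts and spaced CpGs, with the last pair, alone and together, added after the data were seen. Python 3.11.15, NumPy 2.4.6, pandas 2.3.3, SciPy 1.17.1, Numba 0.67.0 and Matplotlib 3.10.9 were used.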

Additional observations from a re-analysis of the deposited data

How the results depend on the processing

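No paired analysis was possible because only 1 library stood for Neg and 1 for the treated cells, and no replicate could be left out for the same reason. Depth was a limit beside the single library per group: with a median of 3 and 2 reads per CpG, a minimum of 5 reads left 6 of the 10 promoters and 3 of the 10 downstream flanks testable, and reads that span several CpGs make the p-values too small. The cause of the differences between settings was not tested unless fewer tested regions or CpGs are named.

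With a minimum of 5 reads fewer regions were tested. Called higher and lower over all genes were 114 and 51 of 6786 promoters and 200 and 23 of 7982 upstream flanks. Of 7318 downstream flanks 131 and 26 were called, and of tiles 1334 and 592. In the LIM homeobox genes 0 of 6 promoters, 1 of 7 upstream flanks (LHX2, 26.98 points) and 1 of 3 downstream flanks were then called higher. Of their tiles 2 were called higher and 0 lower. With a minimum of 3 reads, 5099 and 2246 tiles were called over all, and 2 tiles were called lower in the LIM homeobox genes. Of their downstream flanks 1 of 9 (LHX5, -35.4 points over 5 CpGs) was called lower, beside 47 of 14958 over all. With levels as the share of methylated reads, 516 and 202 promoters, 971 and 176 upstream flanks, 83 bodies lower and 87 downstream flanks lower were called over all. With genes of all types 1230 and 313 promoters were called. With 0.5 kb either side of the start, 1 promoter of the 10 (LHX5, -21.04 points) was called lower, beside 125 of 17414 over all. With 2 kb, 0 of the 10 were called higher, beside 334 of 19338 over all, and 61 were called lower over all. With 2-kb flanks, 209 and 35 of 16407 downstream flanks were called over all. In the LIM homeobox genes 0 of the 9 tested were called higher, at a width that leaves out the ISL1 and ISL2 tiles that rose. With at least 10 CpGs 6007 tiles were called higher. With 250-bp tiles 0 and with 1000-bp tiles 2 were called lower in the LIM homeobox genes. The totals of tiles tested at these other settings are not given here, so these counts of tiles cannot be read against a share over all. With CpGs at least 150 bp apart, 26 and 1 of 16980 promoters and 104 and 4 of 18897 upstream flanks were called over all. Of 18540 downstream flanks 80 and 7 were called, and 16 of 18869 bodies were called lower. In the LIM homeobox genes 0 of 9 tested promoters and 1 of 9 tested downstream flanks were called higher. With that spacing at the canonical start, 16 and 0 of 17129 promoters were called over all and 0 of the 10 higher.

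Differences that changed sign (points, treated minus Neg) were of regions without a call in both settings, except the LHX2 promoter, which was called and stood at -6.34 on spaced CpGs at the canonical start, without a call. With a minimum of 5 reads they were the promoters of LHX9 (-8.0), LHX3 (-6.33) and LMX1A (-0.89), the bodies of LHX3 (3.5) and ISL2 (-0.37) and the LHX1 upstream flank (-7.09). With 3 reads they were the promoters of LHX9 (-4.93), LHX8 (-0.36) and LMX1A (-2.58), the LMX1A upstream flank (-0.57) and the LHX2 downstream flank (-5.41). As shares of reads they were the promoters of LHX9 (-0.068), LHX3 (-1.92), LHX6 (-2.69) and LMX1B (-4.83) and the bodies of LHX3 (1.17), LHX6 (-0.026) and ISL2 (-0.34). On spaced CpGs they were the LHX6 promoter (-5.96), the bodies of LHX9 (2.23) and ISL2 (-0.17), the LHX2 upstream flank (-1.39) and the downstream flanks of LHX3 (1.69) and LHX6 (-8.13). With 0.5 kb either side they were the promoters of LHX8 (-0.68), ISL2 (-0.32) and LMX1B (-2.78), with 2 kb that of LHX9 (-0.24), and at the canonical start that of LHX9 (-6.63), with spaced CpGs those of LHX9 (-8.33) and LHX6 (-4.63). With 2-kb flanks they were the upstream flanks of LHX1 (-0.77), LHX3 (0.99) and LMX1B (1.98) and the downstream flanks of LHX2 (-4.89) and LHX3 (6.59). The ISL1 body was called under every alternative run on it, with differences from 20.2 to 44.7 points and adjusted p-values up to 0.008, the latter over the 5 CpGs with a minimum of 5 reads. The LHX2 promoter lost its call with 2 kb either side, at the canonical start and on spaced CpGs, and had under 5 CpGs with 5 reads.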
